A study of Mus musculus with 4 samples.

Results

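miR-10a, miR-10b, miR-196a and miR-196b, microRNAs (miRNAs) whose genes lie within the Hox gene clusters, were followed on 4 single-colour miRNA arrays. They were chosen by probe name: every perfect-match probe named for one of these 4 miRNAs, without the star that marks an opposite strand, and named for mouse, human or rat. This gave 5 of the 785 perfect-match miRNA probes and 4 of the 389 mouse miRNAs covered. miR-10a, miR-196a and miR-196b each had 1 human-named probe, and miR-10b had a mouse-named and a human-named probe. No rat-named probe was found (0 of 5). Each of the 5 had a partner probe named 2mut, taken here as the same probe with 2 mismatched bases, so that its signal measures hybridization that does not need the exact sequence.

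The array groups were P815 with imatinib, P815 without imatinib, BMMC with SCF and BMMC without SCF. P815 is a mouse mast cell line that carries D814V mutant KIT, the receptor tyrosine kinase of stem cell factor (SCF), and was kept in medium free of cytokines. It was profiled with the kinase inhibitor imatinib at 10 nM for 24 h and without it. BMMC are primary mouse mast cells derived from bone marrow and grown with SCF and interleukin 3. They were profiled with SCF at 100 ng per cc for 24 h and after being starved of SCF. P815 is a single line with its own KIT genotype and medium, so cell line, genotype and culture cannot be told apart where it is set against BMMC. Each group had 1 array. No difference therefore has a replicate error, no test was possible, and higher or lower describes a pair of arrays. KIT activity and the genotype of BMMC were not measured on these arrays.

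The miR-10 and miR-196 genes sit between Hox genes and are transcribed in the same body regions as their neighbours. miRNAs guide the silencing of messenger RNAs that pair with the seed, bases 2 to 8 from the 5′ end, and messenger RNAs of Hox genes are among the known targets of both families. Mouse miR-196 directs cleavage of Hoxb8 messenger RNA. miR-10b represses HOXD10 in human breast cancer cells. In blood, miR-196b is known from stem and progenitor cells and from leukaemias driven by MLL fusions, and miR-10a is known from human haematopoietic progenitors, where it falls during megakaryocyte differentiation.

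The mature sequences are shown because near identity within each pair limits what a hybridization signal can be assigned to. They are from RefSeq in build GRCm38.p6, 5′ to 3′, with the seed in capitals, and all 4 miRNAs were matched. The letters of the array probes themselves are not known here.
miR-10a: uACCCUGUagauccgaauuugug
miR-10b: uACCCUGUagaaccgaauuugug
miR-196a: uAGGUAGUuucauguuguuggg
miR-196b: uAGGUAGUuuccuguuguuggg
miR-10a and miR-10b share their seed and 22 of 23 bases. The 1 difference, with positions counted from the 5′ end and miR-10a as the first base, is U12A. miR-196a and miR-196b share a seed and 21 of 22 bases and differ by A12C, with miR-196a as the first base. The miR-196 pair and the miR-10 pair have no seed in common.

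In GRCm38.p6 the mature miR-10a lies at chr11:96317186-96317208 on the plus strand, inside the annotated span of Hoxb3 and between Hoxb5 and Hoxb4. miR-10b lies at chr2:74726074-74726096 on the plus strand, inside the spans of Hoxd3 and Hoxd4. miR-196a comes from 2 genes. Mir196a-1, at chr11:96265187-96265208 on the plus strand, lies between Hoxb13 and Hoxb9, and Mir196a-2, at chr15:102973365-102973386 on the plus strand, lies between Hoxc10 and Hoxc9. The array cannot separate them, since their mature sequence is the same. miR-196b lies at chr6:52230129-52230150 on the minus strand between Hoxa9 and Hoxa10. Exon and intron boundaries were not used here.

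Values are probe intensities in arbitrary units, and each is set against the median 2mut probe of its own array, which was 180.0 in P815 with imatinib, 203.0 in P815 without imatinib, 277.2 in BMMC with SCF and 295.8 in BMMC without SCF. The authors' processed table gives a value only where a probe reached 1.5 times that median, and such a probe is called listed. Listing is a weak criterion. Of 107 probes for virus and worm miRNAs, which have few known partners in mouse cells, 36.4%, 29.9%, 32.7% and 56.1% were listed in that array order, and the 95th percentile of their intensities was 1377, 975.4, 1232 and 2051. More blood-lineage miRNAs were listed in BMMC than in P815. Of 8 on the array, 5 were listed in P815 with imatinib, 5 in P815 without imatinib, 7 in BMMC with SCF and 8 in BMMC without SCF. Of all 389 mouse miRNAs, 169, 153, 175 and 254 were listed in the same order. BMMC without SCF thus listed the most miRNAs of any kind, and the marker counts are not corrected for this. miR-142-5p, miR-21, miR-155, miR-221 and miR-222 were listed on all 4 arrays, while miR-142-3p and miR-223 were listed on the BMMC arrays only and miR-146a in BMMC without SCF only. Of 9 miRNAs typical of liver, nerve, muscle, endocrine, erythroid, lymphoid or endothelial cells, 1 to 3 were listed per array, counting 1 probe each. The liver miRNA miR-122a was listed on all 4. The muscle miRNA miR-1 was counted by its human-named probe, listed in P815 without imatinib only. Its rat-named probe was listed on all 4 arrays, at 2.10 to 5.08 times the median 2mut probe.

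miR-10a was the member with a strong signal, and only in the primary mast cells. Its probe read 154.0 in P815 with imatinib, 200.2 in P815 without imatinib, 3087 in BMMC with SCF and 5454 in BMMC without SCF. Both P815 values lay below the median 2mut probe of their arrays, at 0.86 and 0.99 times it, while the BMMC values were 11.1 and 18.4 times it. Reading higher on both BMMC arrays than on both P815 arrays was not particular to miR-10a. Both miR-10b probes, the miR-196a probe and the median 2mut probe did so too. miR-10a alone among the members exceeded the 95th percentile of the virus and worm probes, on both BMMC arrays. Of the blood-lineage miRNAs, only miR-21, miR-221 and miR-222 exceeded that percentile on both BMMC arrays, and the others lay below it on both. Lying below it was thus not particular to the other members. The share of all mouse miRNAs above that percentile was not counted. In bulk RNA, fewer cells that hold a miRNA and less of it per cell cannot be told apart.

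The miR-10a signal was lost when the probe was mismatched. Its 2mut partner read 143.5 in P815 with imatinib, 180.5 in P815 without imatinib, 227.0 in BMMC with SCF and 287.5 in BMMC without SCF. The matched probe was thus 1.07 and 1.11 times as bright as its partner in P815, against 13.6 and 19.0 times in BMMC. Of 282 mouse miRNAs with a 2mut probe, 25 had a ratio at least as high, miR-10a included, on each of the BMMC arrays, and 209 did on each of the P815 arrays. The 2mut signal itself stayed near the array median in every group.

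**Figure D1:**
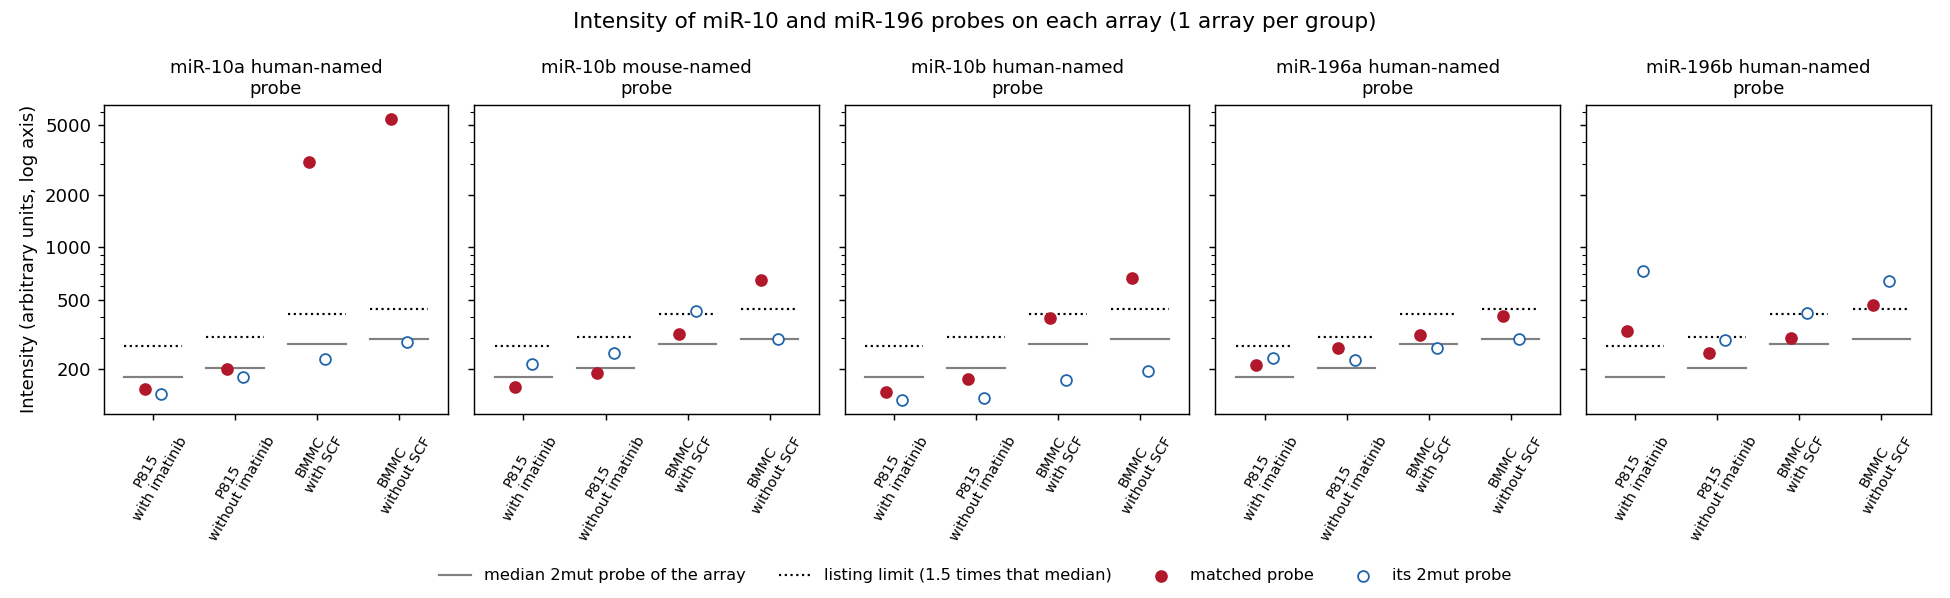
Intensity (arbitrary units, log axis) of each matched probe (filled red) and its 2mut partner (open blue) on the 4 arrays, 1 array per group and so no error bars, with the median 2mut probe of each array as a grey line and the listing limit of 1.5 times that median as a dotted line. The miR-10a probe reads 3087 and 5454 in BMMC and lies at the 2mut level in P815, the miR-10b probes are above the limit in BMMC without SCF only, and the miR-196b partner is brighter than the matched probe on all 4 arrays.

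miR-10b was dim everywhere and listed on 1 array. The mouse-named probe read 157.5 in P815 with imatinib, 188.5 in P815 without imatinib, 316.2 in BMMC with SCF and 646.2 in BMMC without SCF. The human-named probe gave much the same series, with 147.5 in P815 with imatinib, 176.2 in P815 without imatinib, 391.8 in BMMC with SCF and 662.5 in BMMC without SCF. On both probes the order of the arrays was that of miR-10a and also that of the arrays' median 2mut probes, and only BMMC without SCF was listed, at 2.19 and 2.24 times the median 2mut probe.

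The 2mut partners of the miR-10b probes did not behave alike. The partner of the human-named probe read 133.5, 137.0, 172.0 and 195.0 in the same array order, below the matched probe on all 4 arrays. The partner of the mouse-named probe read 214.0, 247.0, 428.0 and 295.5, above the matched probe on 3 of 4 arrays. Only in BMMC without SCF was the mouse-named probe the brighter one, by 2.19 times. miR-10b differs from miR-10a at 1 base, and how much of its signal in BMMC was miR-10a bound to the miR-10b probes was not tested.

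miR-196a was listed on none of the arrays. Its probe read 211.2 in P815 with imatinib, 263.2 in P815 without imatinib, 313.2 in BMMC with SCF and 402.5 in BMMC without SCF, which is 1.17, 1.30, 1.13 and 1.36 times the median 2mut probe. These multiples span a narrow range, and the cell types overlap in them. Its partner read 232.5, 226.0, 262.5 and 298.0 in the same order, so the matched probe was brighter on 3 of 4 arrays, by at most 1.35 times.

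miR-196b was listed in P815 with imatinib and in BMMC without SCF, but its mismatched partner was brighter throughout. The matched probe read 331.2 in P815 with imatinib, 248.2 in P815 without imatinib, 301.0 in BMMC with SCF and 468.2 in BMMC without SCF. The 2mut probe read 732.5, 292.0, 416.5 and 641.0 in the same order, and the matched probe reached between 0.45 and 0.85 times that. The miR-196b signal therefore cannot be assigned to the matched sequence. Among listed mouse miRNAs with a 2mut probe, the partner was the brighter one for 12.2% in P815 with imatinib, 7.02% in P815 without imatinib, 5.51% in BMMC with SCF and 5.91% in BMMC without SCF. Over the 5 probes and 4 arrays, the matched probe was brighter than its partner in 12 of 20 pairs. Over all 282 mouse miRNAs with a 2mut probe, it was brighter for 79.1% in P815 with imatinib, 84.0% in P815 without imatinib, 79.4% in BMMC with SCF and 94.0% in BMMC without SCF.

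For comparisons between arrays, intensities were background-corrected, put on a log2 scale and quantile-normalized over the 785 perfect-match probes, so a difference is relative to the bulk of the probes. Before this step the log2 intensity of the median miRNA probe differed by -0.50 between BMMC with and without SCF and by -0.12 between P815 with and without imatinib. It differed by -0.50 for P815 without imatinib against BMMC with SCF, and by -1.12 for P815 with imatinib against BMMC without SCF. A miRNA was counted if either array of the pair listed it and its difference was at least 2-fold. For a miRNA listed on 1 array of the pair, the difference was also given as a bound, in which the unlisted side was raised to the lowest value among probes listed on that array, unless the probe itself read higher. The yardstick of noise between 2 arrays was the SD of the differences over listed virus and worm probes, called the non-mouse SD.

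The SCF comparison asked whether these miRNAs respond to the KIT ligand in primary mast cells. None of the 3 listed members was 2-fold apart (0 of 3). Over all 256 listed mouse miRNAs, 1.95% were at least 2-fold apart in either direction, and 0 of 3 is near that background. The median difference of the 3 members was -0.24 on the log2 scale, against -0.02 over all listed miRNAs.

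miR-10a was listed on both BMMC arrays and had normalized log2 values of 11.04 with SCF and 11.28 without. The log2 difference of -0.24 lies within the non-mouse SD of 0.31, and 40 of the 256 listed miRNAs lay lower. Its partner went the other way by a similar amount, 0.21. Before normalization its log2 intensity ratio was -0.82, where that of the median probe was -0.50. The size of the miR-10a difference depended on the scaling: it was -0.84 without scaling between arrays and -1.14 in the authors' processed values (2344 with SCF and 5158 without SCF), where the median listed miRNA lay at -0.61 and -0.90.

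miR-10b had normalized log2 values of 7.64 with SCF and 8.29 without on the mouse-named probe, a log2 difference of -0.64. No listed miRNA lay lower at this setting, but the probe was not listed with SCF, which bounds the difference at 1.11-fold lower. The human-named probe gave -0.31, bounded at 1.14-fold, a gap of 0.33 between the probes. The 2mut partners differed by 1.34 for the mouse-named and 0.22 for the human-named probe. miR-196b differed by -0.15 and its partner by -0.14, and miR-196a, listed on neither array, differed by 0.16.

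The imatinib comparison asked what follows in the KIT-mutant line when the inhibitor is given. Only miR-196b was listed on either P815 array, and 0 of 1 listed member was 2-fold apart, where 16.2% of 185 listed mouse miRNAs were. miR-196b had normalized log2 values of 8.48 with imatinib and 7.82 without, a difference of 0.66, against a non-mouse SD of 0.64. It was not listed without imatinib, so the difference is bounded at 1.07-fold higher. Its 2mut partner differed by 1.37, further than the matched probe, and 30 of the 185 listed miRNAs lay higher than miR-196b.

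The remaining members were at background on both P815 arrays. miR-10a differed by -0.31 with imatinib, miR-196a by -0.28, and miR-10b by -0.08 on the mouse-named and -0.06 on the human-named probe. Each of these was smaller than the non-mouse SD, and with no listed value on either side they give no fold change. The miR-10a value reached -1.05 with cyclic loess, a move between 2 background readings.

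**Figure D2:**
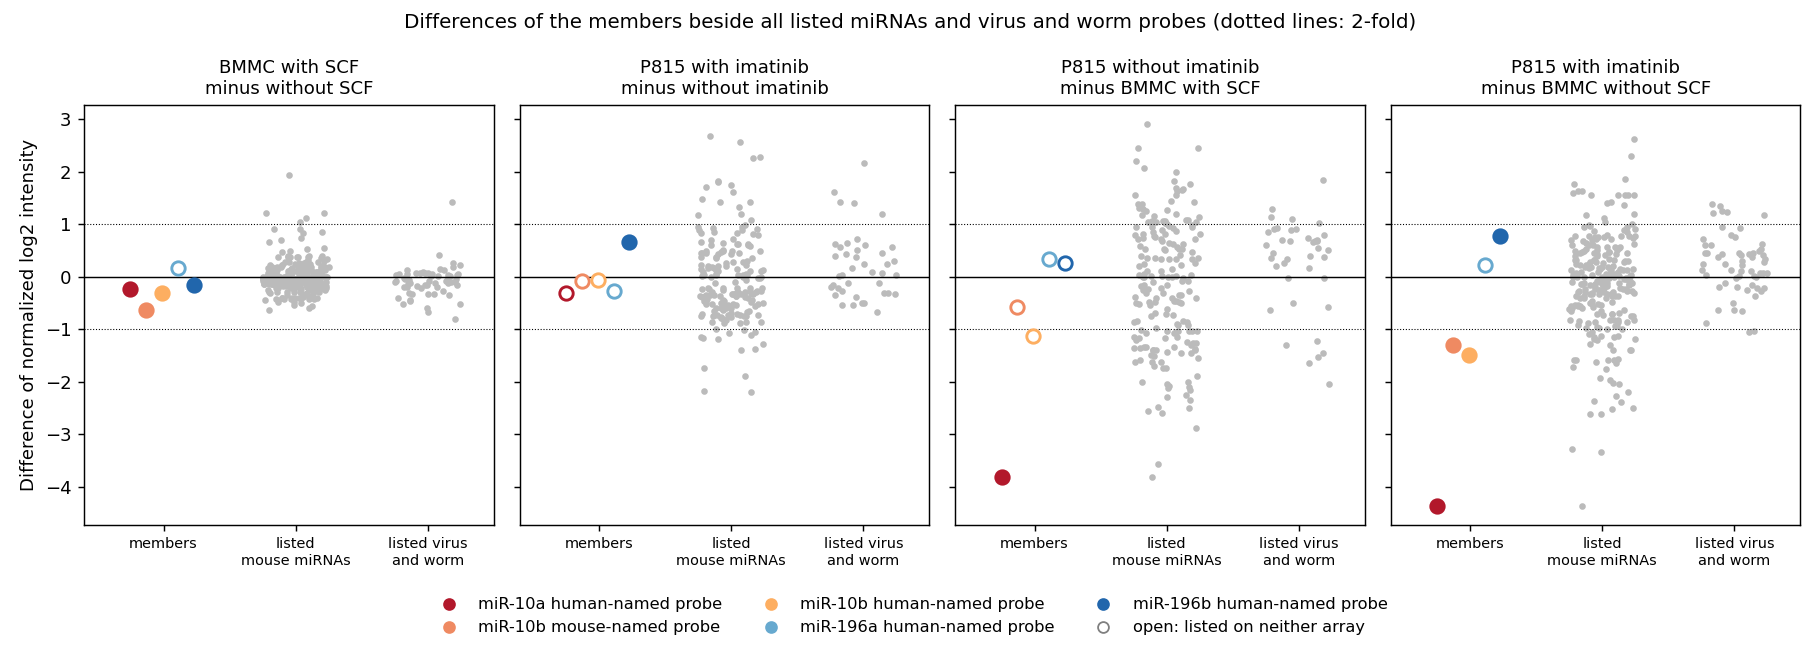
Differences of normalized log2 intensity in the 4 comparisons, with the 5 member probes in colour (open where listed on neither array) beside all listed mouse miRNAs, which include the members, and listed virus and worm probes in grey; dotted lines mark 2-fold, and each value rests on 1 array per group. miR-10a lies at -3.81 and -4.36 in the P815 panels and at -0.24 with SCF, while both miR-196 probes stay between the 2-fold lines in all 4 panels.

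P815 was set against BMMC on pairs of arrays that share no array: P815 without imatinib against BMMC with SCF, and P815 with imatinib against BMMC without SCF. Each P815 array and each BMMC array also stands in a treatment comparison above. miR-10a was lower in P815 in both pairs. It had normalized log2 values of 7.23 in P815 without imatinib and 11.04 in BMMC with SCF, a difference of -3.81. In the other pair it had 6.92 in P815 with imatinib and 11.28 in BMMC without SCF, a difference of -4.36. Because P815 did not list it, the bounds are at least 6.32-fold lower in the first pair and, in the second, at least 8.74-fold lower.

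No listed miRNA had a lower measured difference than miR-10a in either pair at this setting. Taken at the bound, 2 miRNAs lay lower in each. The 2mut partner of miR-10a differed by -0.01 in both pairs, and the non-mouse SDs were 0.90 and 0.56. Under 6 other settings of background and scaling the difference ranged between -4.65 and -3.22 in the first pair and between -5.89 and -3.63 in the second, at least 2-fold lower in each. In the first pair 1 miRNA lay lower than miR-10a under each of these settings except cyclic loess. In the second pair none did. The members' counts were 1 of 1 listed in the first pair and 2 of 3 in the second. Both miR-10 members entered through a listing in BMMC alone, which favours a lower value in P815, and with listing on both arrays the counts are 0 and 0. Of all listed mouse miRNAs, 30.1% of 196 and 15.1% of 259 were 2-fold lower in these pairs, and 49.5% and 22.4% were 2-fold apart in either direction. Of the listed virus and worm probes, 15% of 40 and 3.33% of 60 were 2-fold lower.

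**Figure D3:**
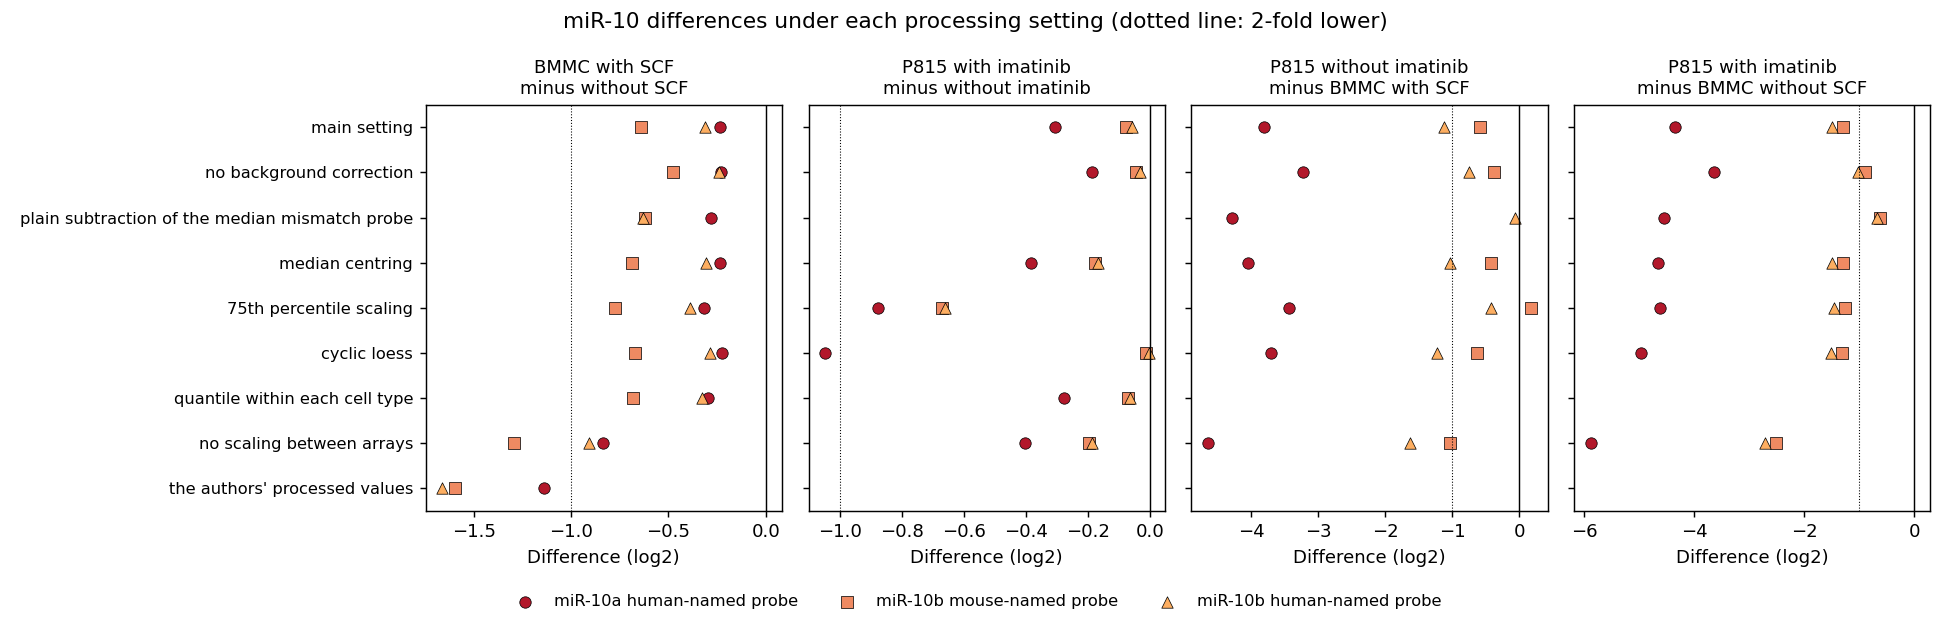
Log2 differences of the miR-10a probe (circles), the mouse-named miR-10b probe (squares) and the human-named miR-10b probe (triangles) in the 4 comparisons under each processing setting, 1 array per group, with a dotted line at 2-fold lower and a separate horizontal scale for each panel. miR-10a stays at -3.22 or lower in both panels of P815 against BMMC. Its SCF value lies between -0.32 and -0.22 except for -0.84 without scaling and -1.14 in the authors' table. The miR-10b values lie on both sides of the 2-fold line in every panel but that of imatinib, where none reaches it. In that panel miR-10a reaches -1.05 with cyclic loess.

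miR-10b was the other lower member, and less clearly. In the second pair the mouse-named probe had normalized log2 values of 6.99 in P815 with imatinib and 8.29 in BMMC without SCF, a difference of -1.30, and the human-named probe gave -1.49. These are bounded at 1.10-fold and 1.12-fold lower, so at the bound miR-10a is the 1 member left at 2-fold. The difference was -0.62 with plain background subtraction and -0.90 with no background correction on the mouse-named probe. In the first pair neither probe was listed on either array, with -0.58 on the mouse-named and -1.13 on the human-named probe, a gap of 0.55 between the probes.

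The direction of the miR-196 members between P815 and BMMC depended on the scaling. All of their differences were above 0 with quantile normalization and below 0 without scaling between arrays. No other setting run put any of them below 0. In the first pair both were at background on both arrays, with differences of 0.33 for miR-196a and 0.26 for miR-196b. In the second pair miR-196b was listed on both arrays and differed by 0.78, a 1.71-fold higher value in P815 with imatinib. Its 2mut partner differed by 1.33. miR-196a differed by 0.21, listed on neither array. Without scaling the values were -0.24 and -0.99 for miR-196a and -0.28 and -0.42 for miR-196b in the first and second pair. At that setting the median listed miRNA lay lower still, at -1.30 and -1.29. The blood-lineage miRNAs moved in part with the miR-10a difference. In the first and second pair, the log2 difference was -2.34 and -2.36 for miR-221, -2.30 and -2.28 for miR-223, -1.43 and -1.59 for miR-222 and -1.03 and -0.48 for miR-142-3p. The other 4 of the 8 were less than 2-fold apart in both pairs, with 0.77 and 0.18 for miR-155, 0.46 and -0.11 for miR-142-5p, 0.00 and -0.36 for miR-21 and -0.31 and -0.05 for miR-146a. The summed intensity of the 8 was 6953 in P815 with imatinib and 5932 in P815 without imatinib, against 31423 in BMMC with SCF and 37536 in BMMC without SCF, and most of it came from the miR-21 and miR-221 probes. Their part in the result was not tested.

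Other miRNAs related by position or sequence were examined as lists. miR-615, whose gene lies inside Hoxc5, was the remaining Hox-cluster miRNA on the array. Its probe read 447.2 in P815 with imatinib, 207.8 in P815 without imatinib, 655.0 in BMMC with SCF and 704.5 in BMMC without SCF, and its 2mut partner was brighter on all 4 arrays, with 977.5, 282.0, 842.0 and 1268 in the same order. The miR-615 difference was 1.61 with imatinib (2mut partner 1.91), bounded at 1.48-fold higher, and 0.39 with SCF. In the P815 pairs it was -1.45 in the first (2mut partner -1.07), bounded at 1.32-fold lower, and 0.55 in the second (2mut partner 0.69). As for miR-196b, the mismatched probe was the brighter of the pair. No probe for an opposite strand of the 4 members was on the array (0 of 4).

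miR-99a, miR-99b and miR-100 are relatives of miR-10 with another seed, since their sequence is out of step with it by a base near the 5′ end. They are printed to show how much of miR-10 they hold.
miR-99a: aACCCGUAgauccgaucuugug
miR-99b: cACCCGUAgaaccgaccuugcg
miR-100: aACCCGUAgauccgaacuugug
The longest run of bases shared with miR-10a is 10 in miR-99a, 5 in miR-99b and 11 in miR-100, and with miR-10b it is 5, 10 and 5. miR-99b read 183.8 in P815 with imatinib, 183.2 in P815 without imatinib, 477.0 in BMMC with SCF and 666.2 in BMMC without SCF, and was listed on the BMMC arrays only. miR-100 read 137.0, 178.5, 274.8 and 445.8 in the same order, listed in BMMC without SCF only, and miR-99a was listed on none. In the first P815 pair 1 of 1 listed member of this list, miR-99b at -1.39, was 2-fold lower. In the second, 1 of 2 was, miR-100 at -1.06, with miR-99b at -0.94. Each was listed in BMMC alone, and at the bound neither 2-fold difference was left, since the listed value lay below the lowest listed value on the P815 array. With SCF 0 of 2 were 2-fold apart, and with imatinib none was listed on either array.

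The miRNAs with the profile most like each member were found by the root mean square distance between log2 profiles over the 4 arrays, each centred on its own mean, among 263 other mouse miRNAs listed on at least 1 array. For miR-10a they were miR-146b (0.37), miR-210 (0.60) and miR-26a (0.84), against a median distance of 2.05. All of these were higher on both BMMC arrays than on both P815 arrays, which follows from choosing them for likeness to miR-10a. The widest range of the group was that of miR-10a. For miR-10b they were miR-98 (0.12), miR-652 (0.17) and miR-100 (0.19), with a median of 0.61. For miR-196b they were miR-494 (0.04), miR-320 (0.04) and miR-685 (0.08), with a median of 0.53. The miR-196b probe was dimmer than its 2mut partner on all 4 arrays, so its profile cannot be assigned to miR-196b. miR-196a, with no listed value, was not examined this way. With 4 arrays many miRNAs share such a profile, and the distances are descriptions.

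**Figure D4:**
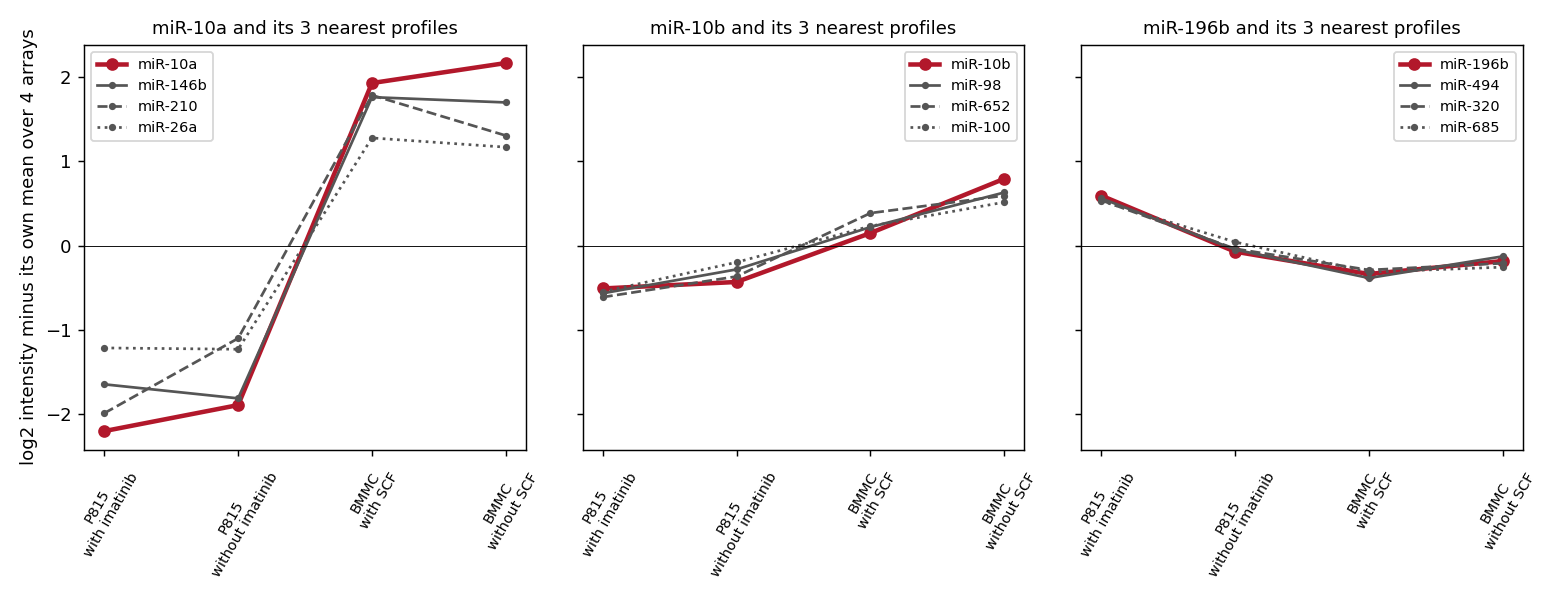
Normalized log2 intensity minus each miRNA's own mean over the 4 arrays (1 array per group, lines join the values of a miRNA) for miR-10a, miR-10b and miR-196b in red, each with its 3 nearest profiles in grey. miR-10a and its neighbours are high on both BMMC arrays and low on both P815 arrays, miR-10b follows a shallower course in the same direction, and miR-196b is highest in P815 with imatinib. The miR-196b probe was dimmer than its 2mut partner on all 4 arrays.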

How the data were processed

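Total RNA was labelled with Cy3 by RNA ligase and hybridized to 4 arrays, per the labels' protocols. Per the file headers, each deposited file holds 1 intensity per probe, the mean of foreground medians on a linear scale, for 1406 probes. The array maker and scanner are not known here. The authors' processed table, also in intensity units, was found to equal the array intensity minus the median 2mut probe, times a factor of 0.834 (BMMC with SCF) or 0.628 (P815 with imatinib). Probes under 1.5 times the median were blank, as all 802 rows showed. It was scaled within a cell type and was used as an alternative there only. No column lacked a sample (0).

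Intensities were corrected with normexp (offset 50, limma 3.58.1, R 4.3.3) on all probes, log2-transformed and quantile-normalized over the perfect-match probes. 2mut probes were brought to this scale by interpolation between the perfect-match probes of the same array. The procedure was tested on simulated data, made as rescaled copies of a single array with noise and with changes put into bright probes only. That test does not cover probes at background or arrays of different cell types. A miRNA's probe was the mouse-named one, otherwise the human-named or rat-named one with a mouse gene of that name in GRCm38.p6, which was used for names, neighbours and sequences. With 1 array per group no p-value was computed. Precision is limited by the number of arrays.

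The members are named throughout, with miR-615, miR-99a, miR-99b, miR-100 and opposite strands as lists and the 3 nearest profiles by a fixed distance. Members, lists and alternatives were chosen with earlier results of these data known. Alternatives were plain or no background correction, median, 75th percentile, cyclic loess, within-cell-type or no scaling, the authors' values, the listing filter and the human-named probe.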

Additional observations from a re-analysis of the deposited data

How the results depend on the processing

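No paired analysis was possible because each group holds 1 array. The lower miR-10a level in P815 than in BMMC kept its direction and stayed past 2-fold under all 6 alternatives of background and scaling in both pairs of arrays. With SCF, 0 members were 2-fold apart, but 1 (miR-10b) without scaling between arrays and 2 (miR-10a and miR-10b) in the authors' processed values, where miR-10b without a listed value was set at the listing limit. At those settings 16 and 106 of all 256 listed miRNAs were 2-fold apart, against 5 of 256 with quantile normalization over the 4 arrays. For P815 without imatinib against BMMC with SCF, the count of 1 became 0 when listing on both arrays was required. For P815 with imatinib against BMMC without SCF, the count of 2 became 1 with plain subtraction, 1 with no background correction and 0 with listing on both arrays. The last requirement removes any miRNA that is at background in 1 group. With imatinib the count of 0 held under every alternative run. The normalization keeps the order of probes within an array, so raw intensities had to give the same 12 of 20 pairs with a brighter matched probe. Of 124 single-probe differences under an alternative, 103 moved by less than the non-mouse SD of the comparison and 21 by more. Low signal limits miR-10b, miR-196a and miR-196b, which lay below the 95th percentile of the virus and worm probes on every array. That was not particular to them. Of the blood-lineage miRNAs, miR-142-3p, miR-142-5p, miR-223, miR-146a and miR-155 did so too, and miR-21, miR-221 and miR-222 did not.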
